A study of Homo sapiens with 10 samples.

Results

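This comparison sets hepatoma cells of the line labelled shRb against Huh7 cells, with both lines exposed to sorafenib (10 μM, 9 h). It took the 3 arrays titled Sh+S (replicates 10, 11 and 12) and the 2 arrays titled Huh+S (replicates 5 and 6), which are 5 of the 10 arrays of the series, and asked which genes separate the lines once both are under the drug. The other 5 arrays, 3 of shRb (replicates 7, 8 and 9) and 2 of Huh7 (replicates 1 and 3), came from cells whose labelled treatment is none. Huh7 was established from a human hepatocellular carcinoma, and all cells were grown in medium with fetal calf serum and lysed directly after treatment. Neither the labels nor the methods say how the shRb line was made, whether it is a single clone, or whether a control line was made the same way. The name of the line and its RB1 values below are all that identifies it, so a difference that belongs to loss of RB1 and one that belongs to the derivation of the line cannot be told apart. Values are log2 signals after robust multi-array averaging (RMA), and each stands for a transcript cluster, the set of probes that covers a gene or another RNA. Array values are given in the order of replicates 10, 11 and 12 for treated shRb cells, against replicates 5 and 6 for treated Huh7 cells.

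Sorafenib inhibits RAF kinases and several receptor tyrosine kinases and is used against liver cancer. RB1 encodes the retinoblastoma protein, a pocket protein that binds E2F transcription factors and holds back the genes of DNA replication until cyclin-dependent kinases phosphorylate it. Metallothioneins, the list in which the lines stood farthest apart here by its median, are short proteins whose many cysteines hold zinc and copper, and they are induced through the metal-sensing factor MTF1.

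Under sorafenib, 692 of 53617 transcript clusters (1.29%) were higher and 531 (0.990%) were lower in treated shRb cells than in treated Huh7 cells by limma (adjusted p under 0.05). When only the 22394 genes with a cluster of their own were counted, 408 (1.82%) were higher and 402 (1.80%) were lower, of which 124 and 95 differed more than 2-fold. The arrays of the lines did not overlap for 7263 genes (32.4%), 3348 with shRb above and 3915 with shRb below. These shares and counts are the background for every count of list members below. Each Huh7 group had 2 arrays, so leaving 1 out left that group with 1 array, and fewer clusters were called. Such a fit is less precise whatever the arrays hold, so a call lost in it does not show that the Huh7 arrays disagree. Of the 119 named clusters past the threshold, 50 stayed past it when any 1 of the 10 arrays was left out, and such calls are described as held in every leave-out. Over all clusters the arrays correlated at 0.984 to 0.986 within treated shRb, at 0.988 within treated Huh7 and at 0.980 to 0.984 between these groups, with array medians between 3.39 and 3.41. Hepatocyte markers had array medians of 10.7 to 10.8 in treated shRb cells and 10.6 to 10.7 in treated Huh7 cells. Markers of leukocytes, endothelium, fibroblasts and cholangiocytes had array medians of 2.97 to 3.98 in treated shRb cells and 3.02 to 4.09 in treated Huh7 cells, near the median of all clusters.

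RB1 (cluster 16774690, chromosome 13) was 6.12, 5.56 and 5.35 in treated shRb cells, against 7.94 and 8.07 in treated Huh7 cells. Every shRb array lay below both Huh7 arrays. The difference of -2.33 (SE 0.21, adjusted p = 0.000667, 5.03-fold lower in shRb) held in every leave-out. In bulk RNA a lower level in every cell and a loss from some of the cells cannot be told apart. Without the drug the line difference in RB1 was -2.28 (adjusted p = 0.00103), and the difference between these values, -0.05, did not pass the test (adjusted p = 0.986).

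Among the other pocket proteins and E2F factors, RBL2, which encodes the pocket protein p130, was 6.67, 6.33 and 6.47 in treated shRb cells, against 5.81 and 5.89 in treated Huh7 cells (0.64, SE 0.12, adjusted p = 0.0276). E2F3, an activating E2F, was 5.58, 5.77 and 5.52 in treated shRb cells, against 6.34 and 6.23 in treated Huh7 cells (-0.66, SE 0.11, adjusted p = 0.0168). Neither gene overlapped between the lines, but both calls were lost without treated Huh7 replicate 5 or 6, where the adjusted p reached 0.168 for RBL2 and 0.127 for E2F3. The RBL2 call was lost on leaving out any 1 of 8 arrays in all. RBL1, which encodes p107, differed by -0.17 (adjusted p = 0.734) and E2F1 by 0.19 (adjusted p = 0.684). The dimerisation partners did not pass the test, with TFDP1 at -0.52 (adjusted p = 0.0852) and TFDP2 at 0.53 (adjusted p = 0.0816). In total 1 of the 17 measured genes of this list was higher and 2 were lower, with a median of -0.04.

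**Figure D1:**
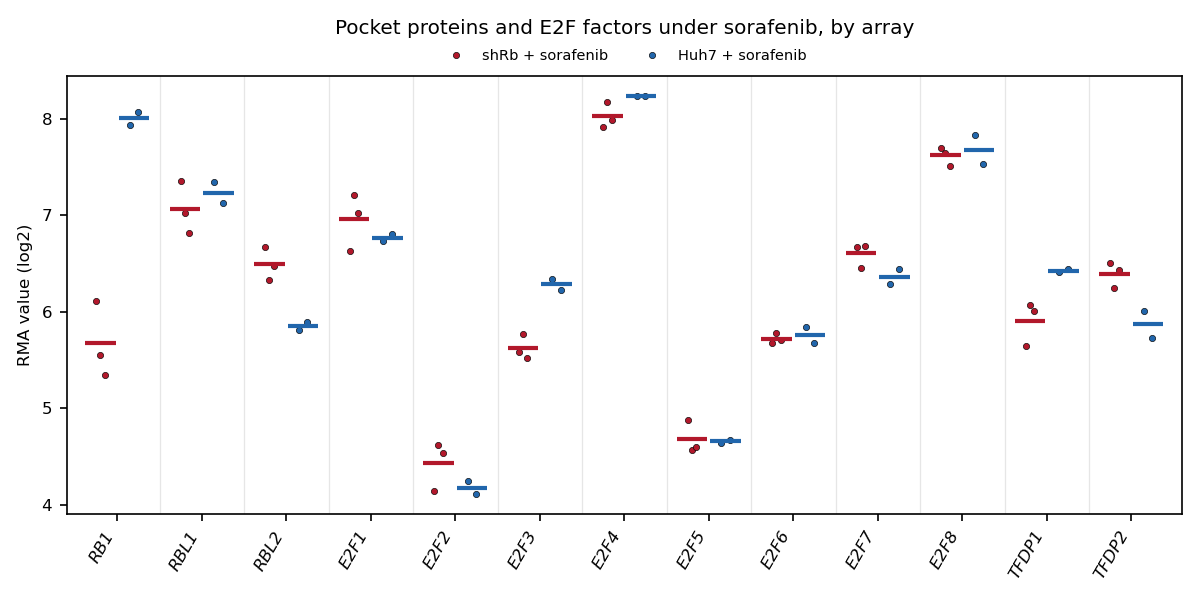
RMA values (log2, vertical axis) of 13 pocket protein and E2F factor genes on each array of treated shRb (red, left of each pair) and treated Huh7 (blue), with a bar at the group mean. RB1 shows the widest gap, with no shRb array above 6.12 and no Huh7 array below 7.94, while the arrays of most E2F genes overlap.

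The replication genes that E2F factors drive showed no line difference that passed the test. None of the 49 measured genes of that list was called in either direction. In limma 6 had an unadjusted p under 0.05, beside 4039 of all 22394 genes. None was called under any alternative limma fit, and their differences ran between -0.47 and 0.41 with a median of 0.02. The methods' t-test is Student's test, which the paper names for experiments on cells. It called 0 clusters of any kind between the treated lines (smallest adjusted p 0.0653), so it cannot speak to this list. MCM6, a subunit of the replicative helicase, had the smallest p of the list, at 8.75, 8.65 and 8.60 in treated shRb cells, against 8.42 and 8.27 in treated Huh7 cells (0.32, SE 0.10, adjusted p = 0.165). Of 37 mitosis genes 2 were lower. ANLN, which encodes the cleavage furrow protein anillin, differed by -0.57 (SE 0.10, adjusted p = 0.0221), and PLK1, a mitotic kinase, by -0.54 (SE 0.10, adjusted p = 0.0301). Both calls were lost without treated Huh7 replicate 5 or 6, the ANLN call also without shRb replicate 11 or 12, and the PLK1 call on leaving out any 1 of 9 arrays. Among 13 G1 cyclins, kinases and inhibitors, SKP2, the F-box protein that targets p27 for degradation, was higher (0.59, SE 0.12, adjusted p = 0.0317). CDK6 was lower (-0.57, SE 0.11, adjusted p = 0.0246), as was CDKN2B, the gene of the CDK inhibitor p15 (-0.75, SE 0.16, adjusted p = 0.0452). Leaving out any 1 of the 10 arrays ended the CDKN2B call, with adjusted p up to 0.261, the SKP2 call ended on leaving out any 1 of 9 arrays, and the CDK6 call without either treated Huh7 array or shRb replicate 10 or 12. Of 26 p53 targets only TP53INP1 was called (0.65, SE 0.12, adjusted p = 0.0285), a call lost on leaving out any 1 of 9 arrays.

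Metallothioneins were the list with the widest gap between the treated lines. Of 15 measured genes and pseudogenes, all in the chromosome 16 cluster, 8 were higher in treated shRb cells and none was lower, against a background of 1.82% of genes called higher. Their median difference was 1.12, beside -0.01 for all genes, and for 12 of them every shRb array lay above both Huh7 arrays. The members have closely similar sequences, so signal from one gene on the probes of another cannot be told apart from its own.

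MT1B was 9.31, 9.55 and 9.91 in treated shRb cells, against 5.68 and 6.01 in treated Huh7 cells, a difference of 3.74 (SE 0.18, adjusted p = 9.14e-06, 13.4-fold higher). In untreated cells the same gene was 3.73, 3.52 and 3.77 in shRb and 3.67 and 3.63 in Huh7, values that overlapped. MT1DP, a transcribed metallothionein pseudogene in RefSeq, was 8.26, 8.29 and 8.66 in treated shRb cells, against 4.28 and 4.50 in treated Huh7 cells (4.01, SE 0.16, adjusted p = 2.89e-06, 16.1-fold). These were the genes with the largest differences upwards of any gene with a cluster of its own name, and both separated the lines far more with the drug than without.

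MT1L, annotated likewise, was 7.56, 7.87 and 8.13 in treated shRb cells, against 4.31 and 4.52 in treated Huh7 cells (3.43, SE 0.18, adjusted p = 1.63e-05). MT1H was 9.33, 9.51 and 9.41 in treated shRb cells, against 6.73 and 6.98 in treated Huh7 cells (2.57, SE 0.13, adjusted p = 1.73e-05). MT1M was 10.14, 10.40 and 10.71, against 8.18 and 8.38 (2.14, SE 0.17, adjusted p = 0.000282, treated shRb against treated Huh7). For these 3 genes the gap was of like size without the drug, at 3.50 for MT1L, 2.45 for MT1H and 2.72 for MT1M.

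A smaller gap was seen for MT1E (1.27, adjusted p = 0.000815), MT1F (1.12, adjusted p = 0.00567) and MT1G (1.12, adjusted p = 0.00431). The untreated difference was 1.21 for MT1E, 1.75 for MT1F and 2.09 for MT1G. All 8 metallothionein calls held in every leave-out, with the highest adjusted p at 0.0459 for MT1G. In the fit with the 5 sorafenib arrays alone, MT1F (adjusted p = 0.073) and MT1G (adjusted p = 0.0574) were not called. MT1X was 11.45, 11.23 and 11.56 in treated shRb cells, against 10.73 and 10.89 in treated Huh7 cells, which narrowly missed the threshold (0.61, SE 0.13, adjusted p = 0.0511). Without the drug MT1X was called higher in shRb (1.23, adjusted p = 0.00271). MT2A, the most widely expressed family member, was 8.32, 8.12 and 8.31, against 7.91 and 8.11 (0.24, SE 0.12, adjusted p = 0.425), although without the drug it was called higher in shRb (0.73, adjusted p = 0.0222). MT3 (-0.03) and MT4 (0.10), the members known from brain and from squamous epithelium, were not called in either state.

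**Figure D2:**
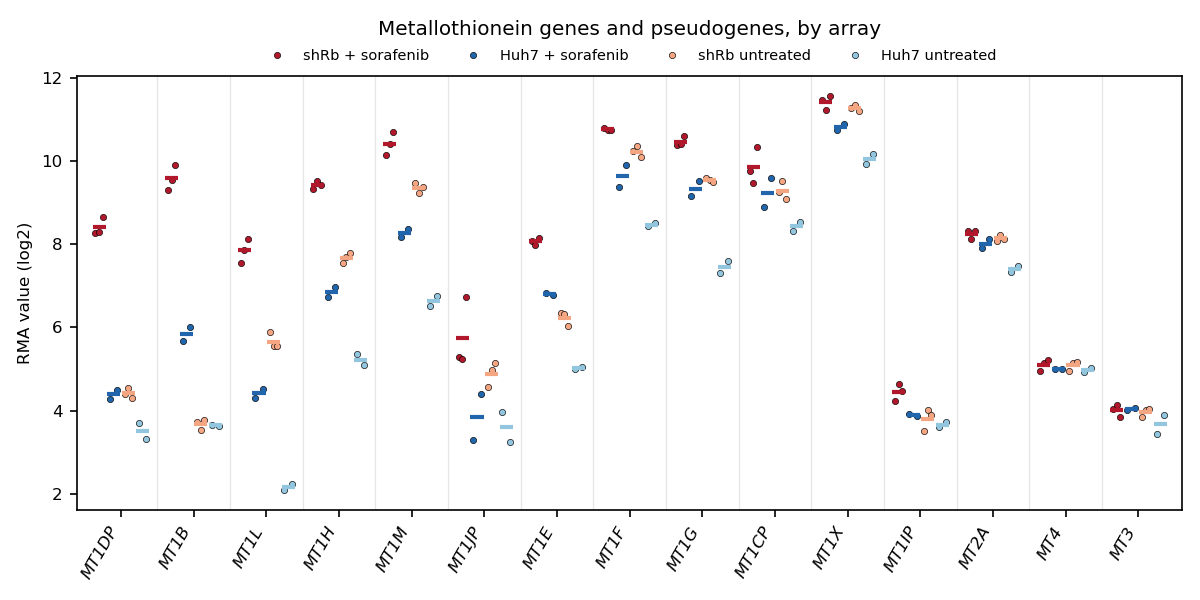
RMA values (log2, vertical axis) of the 15 measured metallothionein genes and pseudogenes on all 10 arrays, with treated shRb, treated Huh7, untreated shRb and untreated Huh7 from left to right within each gene and a bar at each group mean. MT1B lies between 9.31 and 9.91 on the treated shRb arrays and at most at 6.01 on any other array, whereas MT1L and MT1H keep a gap of similar size with and without the drug.

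The promoters of MT1B, MT1H, MT1X and MT2A are printed here. Their line differences under sorafenib were 3.74, 2.57, 0.61 and 0.24 on the log2 scale. Each is the RefSeq sequence of build GRCh38.p14, with 250 bases before the transcription start and 50 after it. Capitals mark matches on either strand to TGCNCNC, the pattern searched here for the core of the metal response element bound by MTF1. N is any base and matches may overlap. Because N accepts any base, a marked stretch need not be the core of such an element. Only genes with exactly 1 RefSeq promoter of this length were taken, which kept 5 of the 16 listed metallothioneins, these and MT4. Promoters of the other members were not searched.
MT1B promoter, chr16:56651636-56651935, strand +: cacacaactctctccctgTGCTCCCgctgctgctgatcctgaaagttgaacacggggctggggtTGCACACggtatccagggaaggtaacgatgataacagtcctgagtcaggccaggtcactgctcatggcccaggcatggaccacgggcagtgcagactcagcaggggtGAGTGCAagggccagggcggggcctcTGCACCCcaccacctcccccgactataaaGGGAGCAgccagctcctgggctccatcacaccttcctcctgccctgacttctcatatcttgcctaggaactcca
MT1H promoter, chr16:56669564-56669863, strand +: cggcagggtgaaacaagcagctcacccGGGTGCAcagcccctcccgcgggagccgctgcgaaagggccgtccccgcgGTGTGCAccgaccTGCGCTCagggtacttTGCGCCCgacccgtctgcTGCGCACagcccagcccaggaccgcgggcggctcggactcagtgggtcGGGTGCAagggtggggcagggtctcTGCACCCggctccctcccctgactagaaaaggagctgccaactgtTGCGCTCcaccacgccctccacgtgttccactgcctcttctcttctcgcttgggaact
MT1X promoter, chr16:56682220-56682519, strand +: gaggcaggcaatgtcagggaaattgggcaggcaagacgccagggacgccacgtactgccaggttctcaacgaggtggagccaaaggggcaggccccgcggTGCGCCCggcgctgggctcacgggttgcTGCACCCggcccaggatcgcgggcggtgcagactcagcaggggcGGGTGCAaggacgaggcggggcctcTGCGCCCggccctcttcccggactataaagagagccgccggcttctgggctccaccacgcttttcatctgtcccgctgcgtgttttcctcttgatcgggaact
MT2A promoter, chr16:56608334-56608633, strand +: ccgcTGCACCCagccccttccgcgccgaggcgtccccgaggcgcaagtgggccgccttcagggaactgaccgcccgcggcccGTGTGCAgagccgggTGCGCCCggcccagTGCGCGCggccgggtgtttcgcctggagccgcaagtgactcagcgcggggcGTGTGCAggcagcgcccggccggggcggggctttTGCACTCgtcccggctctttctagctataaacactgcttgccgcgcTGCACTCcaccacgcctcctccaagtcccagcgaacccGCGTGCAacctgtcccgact
MT1B held 5 matches, MT1H 8, MT1X 4, MT2A 8 and MT4 6, and whether these matches bear on the line differences was not tested. At least 1 match occurs in 55.9% of 35116 promoters of the same length, and 5 or more in 0.863% of them. The core of the antioxidant response element, TGACNNNGC, had 1 match each in MT1B, MT1X and MT2A, and is found in 13.3% of promoters. The E2F core TTTNNCGC, found in 6.89% of promoters, had no match in any of the 5. A match is a match of letters and not a bound site. Outside the family, PAGE1 held 3 matches to TGCNCNC, SPP1 and TM4SF4 held 1 each, and RFPL4B held none.

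Zinc exporters were higher in part. SLC30A2, which moves zinc into vesicles, was 5.82, 5.86 and 6.42 in treated shRb cells, against 4.66 and 4.25 in treated Huh7 cells (1.58, SE 0.19, adjusted p = 0.00286), and this call held in every leave-out. In untreated cells SLC30A2 lay between 3.61 and 3.73 on all 5 arrays, but the test of the change in the difference did not pass (1.52, adjusted p = 0.124). SLC30A1, the plasma membrane exporter that MTF1 also induces, was 9.60, 9.44 and 9.46 in treated shRb cells, against 8.93 and 8.84 in treated Huh7 cells (0.62, SE 0.10, adjusted p = 0.016). SLC30A10, a manganese exporter of the same family, differed by 0.58 (adjusted p = 0.0278). The importer gene SLC39A6 was lower, at 6.98, 6.92 and 6.71 in treated shRb cells, against 7.91 and 7.75 in treated Huh7 cells (-0.96, SE 0.12, adjusted p = 0.0045). The SLC30A1 and SLC30A10 calls were lost without treated Huh7 replicate 5 or 6 (adjusted p up to 0.134 and 0.196), that of SLC30A10 on leaving out any 1 of 7 arrays, and the SLC39A6 call without replicate 5 (adjusted p = 0.0543). In all, 3 of 25 zinc transporters were higher and 1 was lower, with a median of -0.02.

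Genes controlled by the oxidant-responsive factor NRF2 differed in only a few members. HMOX1, the haem-degrading enzyme haem oxygenase 1, was 7.37, 7.92 and 7.63 in treated shRb cells, against 6.04 and 5.68 in treated Huh7 cells (1.77, SE 0.17, adjusted p = 0.000815, 3.42-fold higher), and the call held in every leave-out. Untreated, HMOX1 differed by 0.15 between the lines, and the test of the change in the difference gave 1.63 with an adjusted p of 0.0705. AKR1C2, an aldo-keto reductase, was 4.23, 3.64 and 3.77 in treated shRb cells, against 2.78 and 2.57 in treated Huh7 cells (1.20, adjusted p = 0.0129). Its treated Huh7 values lay below the median of all clusters. SLC7A11, the cystine transporter, was higher by 0.78 (adjusted p = 0.0321) and ABCC3, an organic anion exporter, was lower by 0.70 (-0.70, adjusted p = 0.0129). These 3 calls were lost without treated Huh7 replicate 6 (adjusted p up to 0.121, 0.216 and 0.125 for AKR1C2, SLC7A11 and ABCC3), those of AKR1C2 and SLC7A11 also without replicate 5, and that of SLC7A11 on leaving out any 1 of 7 arrays. In total 3 of 28 NRF2 targets were higher and 1 was lower, with a median of 0.11. NFE2L2, the gene of NRF2 itself, differed by 0.13 (adjusted p = 0.718) and KEAP1, its repressor, by -0.04 (adjusted p = 0.932). Of 27 genes of ferroptosis and iron handling 5 were higher, HMOX1 and SLC7A11 with ACSL4, GCH1 (0.86, adjusted p = 0.0141) and STEAP3 (0.95, adjusted p = 0.02), the last 2 lost without either treated Huh7 array. ACSL4, which loads polyunsaturated fatty acids into lipids, was 10.67, 10.41 and 10.43 in treated shRb cells, against 9.66 and 9.54 in treated Huh7 cells (0.90, SE 0.11, adjusted p = 0.0043, lost without treated Huh7 replicate 6 at 0.0583).

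Cholesterol synthesis genes leaned upwards in treated shRb cells as a list. All 26 measured genes had a positive difference, between 0.17 and 1.46 with a median of 0.55, and 21 did not overlap between the lines (background 3348 of 22394 genes with shRb above). Past the threshold were 10 of them, against 1.82% of all genes, and none was lower. HMGCS1, the enzyme that makes HMG-CoA for the pathway, was 9.96, 9.88 and 9.95 in treated shRb cells, against 9.13 and 8.75 in treated Huh7 cells (0.99, SE 0.12, adjusted p = 0.00359). LSS, lanosterol synthase, was 8.16, 8.41 and 8.35, against 7.50 and 7.34 (0.89, SE 0.12, adjusted p = 0.0054, treated shRb against treated Huh7). MSMO1, a sterol methyl oxidase, was 10.45, 10.36 and 10.01 in treated shRb cells, against 9.52 and 9.44 in treated Huh7 cells (0.79, SE 0.14, adjusted p = 0.0182). EBP, a sterol isomerase, differed by 0.69 (SE 0.12, adjusted p = 0.0168). Every one of these shRb arrays was above both Huh7 arrays.

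Most cholesterol synthesis calls were lost when either treated Huh7 array was left out, a fit with 1 array in that group. The difference of EBP stayed between 0.66 and 0.70 in every leave-out, although its call was lost without either of them. With the 5 sorafenib arrays alone the number called was 0. HMGCS1 was the only one of the 4 genes above that held in every leave-out. Without the drug 2 of the 26 genes were called higher, the median was 0.33, and no member's difference changed with the drug at the threshold.

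**Figure D3:**
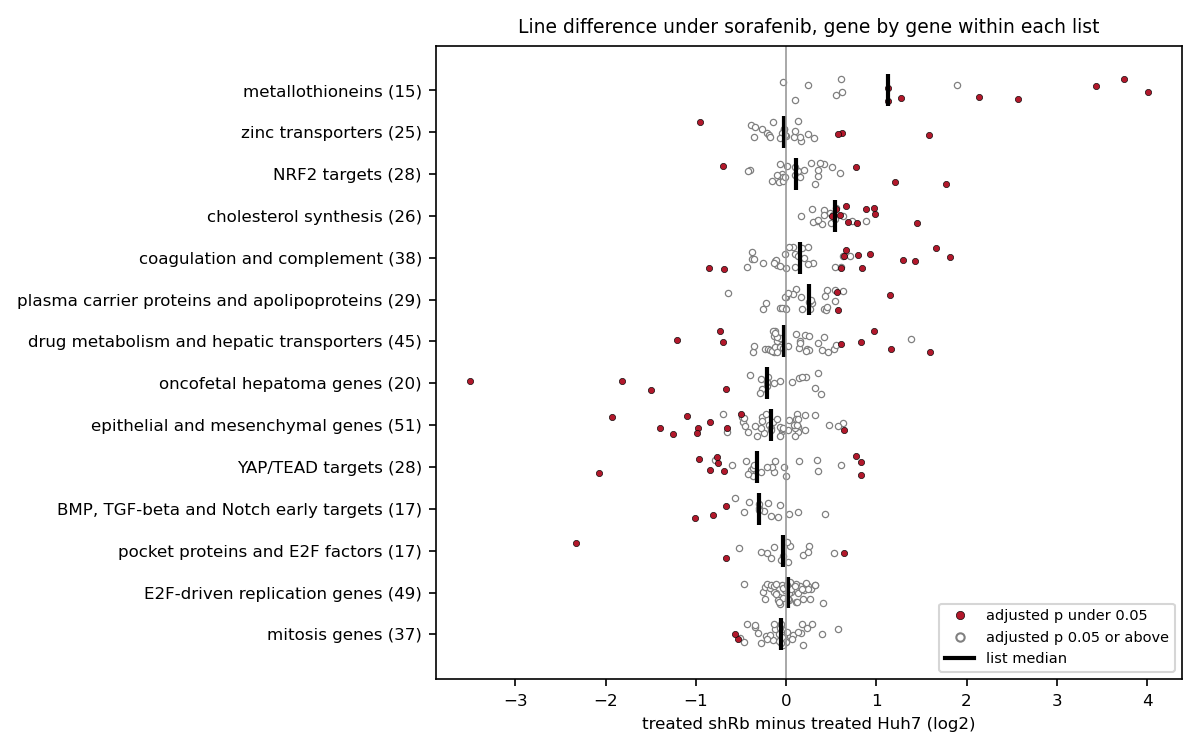
Difference of treated shRb minus treated Huh7 (log2, horizontal axis) for each measured gene of 14 lists, with the number of genes in brackets, calls at an adjusted p under 0.05 in red and a black line at each list's median. The metallothioneins reach 4.01 and cholesterol synthesis lies entirely above 0, while the E2F-driven replication genes stay between -0.47 and 0.41.

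Some genes of secreted liver proteins differed between the treated lines. Of 38 coagulation and complement genes 10 were higher and 2 were lower, with a median of 0.15, and without the drug 4 were higher and 1 was lower. F11, coagulation factor XI, was 5.71, 5.60 and 5.42 in treated shRb cells, against 3.65 and 3.86 in treated Huh7 cells (1.82, SE 0.12, adjusted p = 7.6e-05, 3.54-fold higher). C4BPA, a chain of the complement inhibitor C4b-binding protein, was 5.80, 5.77 and 5.82, against 4.13 and 4.14 (1.66, SE 0.10, adjusted p = 5.29e-05, treated shRb against treated Huh7). C3, the central complement component, was 10.41, 10.47 and 10.57 in treated shRb cells, against 9.07 and 9.31 in treated Huh7 cells (1.29, SE 0.12, adjusted p = 0.000724). CFI, a protease that inactivates C3b, differed by 1.43 (SE 0.16, adjusted p = 0.00223). These 4 calls held in every leave-out, and the same genes were called higher in untreated shRb cells as well. MBL2, mannose-binding lectin, was lower (-0.85, adjusted p = 0.0137), as was CFB, complement factor B (-0.69, adjusted p = 0.0237), and both calls were lost without treated Huh7 replicate 5 or 6, that of CFB also without shRb replicate 10 or 11. The number higher was 4 without treated Huh7 replicate 5 or without replicate 6.

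Among 29 plasma carriers and apolipoproteins 3 were higher and none was lower. ALB, albumin, was 12.12, 12.02 and 11.99 in treated shRb cells, against 11.55 and 11.42 in treated Huh7 cells (0.56, SE 0.10, adjusted p = 0.0215). HRG, histidine-rich glycoprotein, differed by 1.15 (adjusted p = 0.00848) and ITIH2, an inter-alpha-trypsin inhibitor chain, by 0.58 (adjusted p = 0.0325). All 3 calls were lost without treated Huh7 replicate 5 or 6, with adjusted p up to 0.176, that of ALB also without shRb replicate 10 and that of ITIH2 on leaving out any 1 of 9 arrays. NR0B2, which encodes the nuclear receptor SHP, a repressor of bile acid synthesis, was the only call among 17 liver-enriched transcription factors. It was 5.91, 5.23 and 5.57 in treated shRb cells, against 4.18 and 3.83 in treated Huh7 cells (1.56, SE 0.22, adjusted p = 0.0069, lost without treated Huh7 replicate 6 at 0.084).

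Drug metabolism and hepatic transporter genes split, with 5 of 45 higher and 3 lower and a median of -0.02. SLCO1B3, a hepatic uptake transporter, was 4.95, 4.84 and 4.67 in treated shRb cells, against 3.40 and 3.06 in treated Huh7 cells (1.59, SE 0.13, adjusted p = 0.000375). A further cluster of the same gene, with values of at most 2.24, differed by 0.35 and was not called (adjusted p = 0.292). SULT2A1, a steroid sulphotransferase, was 7.18, 7.09 and 7.12 in treated shRb cells, against 5.99 and 6.32 in treated Huh7 cells (0.97, SE 0.15, adjusted p = 0.0131, lost without treated Huh7 replicate 5 at 0.111). CYP1A1, an enzyme induced by the aryl hydrocarbon receptor, was lower, at 8.71, 8.50 and 8.62 in treated shRb cells, against 9.84 and 9.80 in treated Huh7 cells (-1.21, SE 0.11, adjusted p = 0.000653). CYP1B1, induced by the same receptor, was 2.69, 2.98 and 2.85, against 3.63 and 3.53 (-0.74, adjusted p = 0.0126, treated shRb against treated Huh7, lost without either treated Huh7 array). These CYP1B1 values lay near or below the median of all clusters. The SLCO1B3 and CYP1A1 calls held in every leave-out.

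Oncofetal genes were lower where they differed, with 4 of 20 lower, none higher and a median of -0.21, beside 4 lower and 1 higher without the drug. DLK1, a membrane protein of fetal liver related to Notch ligands, was 5.54, 5.90 and 5.77 in treated shRb cells, against 9.14 and 9.34 in treated Huh7 cells. This was the largest difference downwards of any gene with a cluster of its own name (-3.50, SE 0.19, adjusted p = 2.2e-05, 11.3-fold lower). It was of like size without the drug (-3.30). GOLM1, a Golgi protein, was 6.46, 6.46 and 6.25 in treated shRb cells, against 8.02 and 7.76 in treated Huh7 cells (-1.50, SE 0.12, adjusted p = 0.000318). SSX1, a cancer-testis gene, differed by -1.82 (adjusted p = 0.00163) at values no higher than 3.70. AFP, alpha-fetoprotein, was 10.27, 10.18 and 10.12 in treated shRb cells, against 10.87 and 10.86 in treated Huh7 cells (-0.67, SE 0.11, adjusted p = 0.0169). DLK1, GOLM1 and SSX1 held in every leave-out, and AFP was lost without treated Huh7 replicate 5 or 6 (adjusted p up to 0.118).

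Some genes of adhesion, the cytoskeleton and mesenchymal cells were lower in treated shRb cells. Of 51 epithelial and mesenchymal genes 9 were lower and 1 was higher, against backgrounds of 1.80% and 1.82%, 41 were not called, and the median was -0.17. Between the untreated lines the counts ran the other way, with 6 higher, 1 lower and a median of 0.01, and for 3 of the genes the change of the line difference with the drug was itself called, downwards. CD44, the hyaluronan receptor, was 2.53, 2.98 and 2.91 in treated shRb cells, against 4.64 and 4.82 in treated Huh7 cells (-1.93, SE 0.15, adjusted p = 0.000202). Its treated shRb values lay below the median of all clusters. Without the drug the lines were close, with 4.06, 3.95 and 3.86 in shRb and 3.79 and 3.83 in Huh7. A further cluster of CD44, with values between 2.34 and 3.18 on the 10 arrays, did not differ past the threshold (0.22, adjusted p = 0.754), so the line difference rests on 1 of the gene's 2 clusters.

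ANXA1, an annexin that binds membranes in a calcium-dependent way, was 6.64, 6.57 and 6.48 in treated shRb cells, against 7.91 and 8.00 in treated Huh7 cells (-1.39, SE 0.10, adjusted p = 0.000181). ANXA3, of the same family, was 8.86, 8.73 and 8.64, against 9.74 and 9.71 (-0.99, SE 0.11, adjusted p = 0.0018, treated shRb against treated Huh7). CLDN6, a claudin of fetal tight junctions, was 8.23, 8.49 and 8.39 in treated shRb cells, against 9.53 and 9.72 in treated Huh7 cells (-1.26, SE 0.11, adjusted p = 0.000613). The members that moved were not of one kind, since CLDN6 and DSP (-0.66, adjusted p = 0.00977), the gene of desmoplakin, which was picked after its values were seen, belong to epithelial junctions. TAGLN, an actin-binding protein of smooth muscle and fibroblasts, differed by -0.97 (adjusted p = 0.00901, lost without treated Huh7 replicate 6 at 0.0999). ITGA5, the fibronectin receptor chain, was the gene called higher (0.64, adjusted p = 0.037, lost on leaving out any 1 of 9 arrays). CD44, ANXA1, ANXA3 and CLDN6 held in every leave-out. The list count was 5 without treated Huh7 replicate 5 and 4 without replicate 6.

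Targets of the YAP and TEAD factors, which couple cell contact and tension to transcription, divided. Of 28 genes 6 were lower and 3 were higher, and the median was -0.32. Between the untreated lines 4 were higher, none was lower and the median was 0.05, and 1 gene's line difference changed with the drug at the threshold. MYOF, the membrane repair protein myoferlin, was 6.05, 5.90 and 5.97 in treated shRb cells, against 8.06 and 8.03 in treated Huh7 cells (-2.07, SE 0.11, adjusted p = 1.98e-05, 4.21-fold lower). CCN2, a matricellular growth factor, was 8.05, 8.00 and 8.07 in treated shRb cells, against 9.07 and 8.94 in treated Huh7 cells (-0.97, SE 0.10, adjusted p = 0.00125). PTPN14 (-0.75, adjusted p = 0.0104), a phosphatase that restrains YAP, and NUAK2 (-0.77, adjusted p = 0.0197), a kinase related to AMPK, were lower as well. In the other direction ANKRD1, an ankyrin repeat protein, was 8.65, 8.79 and 8.51 in treated shRb cells, against 7.89 and 7.76 in treated Huh7 cells (0.83, SE 0.12, adjusted p = 0.00709). NT5E, the ectonucleotidase CD73, differed by 0.78 (adjusted p = 0.0122) and IGFBP3 by 0.83 (adjusted p = 0.0333). MYOF and CCN2 held in every leave-out, and each of the other calls named was lost without treated Huh7 replicate 6, with adjusted p up to 0.235, that of IGFBP3 on leaving out any 1 of 8 arrays. The number lower was 3 without treated Huh7 replicate 5 and 2 without replicate 6.

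Genes that respond early to BMP, TGF-beta or Notch signals were lower in 3 of 17, with a median of -0.30. HES1, a Notch target and transcriptional repressor, was 6.95, 7.05 and 6.82 in treated shRb cells, against 7.81 and 8.08 in treated Huh7 cells (-1.01, SE 0.13, adjusted p = 0.00371). HEY1 was 3.92, 3.70 and 3.49, against 4.38 and 4.65 (-0.81, SE 0.14, adjusted p = 0.0207), and ID1, a BMP target, was 9.07, 9.12 and 9.22, against 9.79 and 9.83 (-0.67, SE 0.10, adjusted p = 0.00856), each with treated shRb first. All 3 calls were lost without treated Huh7 replicate 6, with adjusted p of at most 0.173, so the count was 0, and it was 1 without replicate 5. None was called between the untreated lines. The test of the change in the difference also called none of the 17, with adjusted p of 0.213 for HES1, 0.327 for HEY1 and 0.109 for ID1.

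The other large differences upwards were a mixed group of genes. PAGE1, a cancer-testis gene on the X chromosome, was 7.44, 7.40 and 7.71 in treated shRb cells, against 4.57 and 4.08 in treated Huh7 cells (3.19, SE 0.21, adjusted p = 7.27e-05). TM4SF4, a tetraspanin-like membrane protein, was 7.04, 7.07 and 6.87 in treated shRb cells, against 4.60 and 4.39 in treated Huh7 cells (2.50, SE 0.13, adjusted p = 1.46e-05). OSBPL1A, an oxysterol-binding protein relative, differed by 2.35 (SE 0.15, adjusted p = 7.51e-05), HSD17B2, which oxidises oestradiol and testosterone, by 2.23 (SE 0.11, adjusted p = 1.46e-05) and CRYBG1 by 2.36 (SE 0.20, adjusted p = 0.000438). SNAP25, a SNARE protein of exocytosis, differed by 2.05 (adjusted p = 8.67e-05) and SLFN11, which sensitises cells to DNA-damaging drugs, by 1.90 (adjusted p = 0.000184). These 7 calls held in every leave-out, and all 7 genes were called in the same direction between the untreated lines. MRAS, a RAS-related GTPase, differed by 1.90 (adjusted p = 0.00454, lost without treated Huh7 replicate 5 at 0.0545).

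A pair of small nucleolar RNAs of the H/ACA class stood out by their uneven arrays. SNORA14B was 6.68, 6.39 and 8.25 in treated shRb cells, against 4.73 and 4.60 in treated Huh7 cells (2.44, SE 0.45, adjusted p = 0.0247). SNORA60 was 7.32, 6.82 and 8.20 in treated shRb cells, against 5.66 and 5.36 in treated Huh7 cells (1.94, SE 0.39, adjusted p = 0.0352). In both, replicate 12 was the highest, and both calls were lost without treated Huh7 replicate 5 or 6 (adjusted p up to 0.163 and 0.215), that of SNORA60 also without shRb replicates 8, 10 or 12.

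Downwards, after DLK1, came SPP1, RAB27B and RFPL4B. SPP1, the secreted phosphoprotein osteopontin, was 4.93, 4.63 and 4.44 in treated shRb cells, against 7.67 and 7.38 in treated Huh7 cells (-2.85, SE 0.17, adjusted p = 3.96e-05, 7.23-fold lower). RAB27B, a GTPase of vesicle secretion, was 3.87, 3.47 and 3.22 in treated shRb cells, against 6.19 and 6.18 in treated Huh7 cells (-2.66, SE 0.19, adjusted p = 0.000152). RFPL4B differed by -2.48 (adjusted p = 4.01e-05). S100A3, a calcium-binding protein, was 4.08, 4.29 and 4.51 in treated shRb cells, against 6.59 and 6.81 in treated Huh7 cells (-2.41, SE 0.17, adjusted p = 0.000144). TIMP3 (-2.09, adjusted p = 0.000925) and TIMP4 (-2.08, adjusted p = 0.000101), both inhibitors of matrix metalloproteinases, were lower, as were EMP3 (-2.15, adjusted p = 0.000195), CRISP3 (-2.13, adjusted p = 7.51e-05), GABRA2 (-1.99, adjusted p = 0.000195) and PIK3C2G (-1.96, adjusted p = 0.000825). MYL9, a myosin light chain of contractile cells, was 7.46, 7.52 and 7.79 in treated shRb cells, against 9.30 and 9.60 in treated Huh7 cells (-1.86, SE 0.14, adjusted p = 0.000202). Every gene in this paragraph held its call in every leave-out.

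Other stress and signalling lists held few calls. Among 37 genes of the integrated stress response 3 were higher and 2 were lower, with PHGDH, the first enzyme of serine synthesis, at 0.70 (adjusted p = 0.0114), CBS at 0.75 (adjusted p = 0.00758), STC2 at -0.90 (adjusted p = 0.0165) and VEGFA at -0.62 (adjusted p = 0.0418). In the glycolysis and hypoxia list, 3 of 32 were higher and 2 were lower. SLC2A1, the glucose transporter GLUT1, was 7.14, 7.28 and 7.13 in treated shRb cells, against 8.15 and 8.31 in treated Huh7 cells (-1.05, SE 0.12, adjusted p = 0.0024), a call that held in every leave-out, whereas NDRG1, a hypoxia-induced gene, differed by 0.89 (adjusted p = 0.00708). SPRED1, an inhibitor of RAS signalling, was the only 1 of 20 genes of ERK pathway output called (2.0-fold lower, SE 0.17 on the log2 scale, adjusted p = 0.0178). Of 24 immediate early genes, KLF6 was higher (0.57, adjusted p = 0.0381), and JUNB (-0.92, adjusted p = 0.028), KLF10 (-0.64, adjusted p = 0.0198) and CCN2 were lower. Between the untreated lines 3 were higher and none was lower, but no member's line difference changed with the drug at the threshold. CCL20, a chemokine, was 9.67, 9.39 and 8.95 in treated shRb cells, against 8.17 and 7.90 in treated Huh7 cells (1.30, SE 0.19, adjusted p = 0.00867). Apart from SLC2A1 and CCN2, each call in this paragraph was lost without treated Huh7 replicate 6. The KLF6 call was lost on leaving out any 1 of 9 arrays, that of VEGFA any 1 of 8, that of JUNB any 1 of 6 and that of KLF10 any 1 of 3. The PHGDH, STC2, NDRG1 and SPRED1 calls were also lost without treated Huh7 replicate 5. Neither the 13 kinase targets of sorafenib, nor 31 cytosolic ribosomal proteins, nor 8 reference genes held a call in limma. Their medians were 0.06, -0.10 and -0.08, and 1, 1 and 4 of them had an unadjusted p under 0.05 in limma. The methods' t-test called 0 clusters between the treated lines and so cannot speak to these lists. GAPDH differed by -0.19 (adjusted p = 0.55) and ACTB by -0.43 (adjusted p = 0.117).

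Genes that mark other cell types were lower in a few cases. Of 14 leukocyte markers 3 were lower and none higher, with a median of 0.03. The list as a whole did not lean downwards, since 8 had a difference above 0. The arrays of the lines did not overlap for 5 with shRb above and for 4 with shRb below. CD3D was 3.44, 3.14 and 3.38 in treated shRb cells, against 4.52 and 4.87 in treated Huh7 cells (-1.38, adjusted p = 0.0015), a call that held in every leave-out. ITGAM differed by -1.07 (adjusted p = 0.00539) and CD68, a lysosomal protein that many cell types express, by -0.99 (adjusted p = 0.0094), each lost without treated Huh7 replicate 6 at 0.0695 and 0.103. Among the markers of cholangiocytes, fibroblasts and endothelium 1 each was lower and none was higher. These were SPP1 (-2.85), TAGLN (-0.97) and ESAM (-0.75, adjusted p = 0.0229). The ESAM call was lost without either treated Huh7 array or shRb replicate 10 or 11. The part of other cells in all these values was not tested.

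The untreated arrays share no array with the treated ones and measure the line difference without the drug, which need not equal that with it. The lines, and any handling tied to them, are the same, and the fit pools the spread of all arrays. Untreated shRb exceeded untreated Huh7 in 229 genes (1.02%) and lay below in 120 genes (0.536%). Of the 408 genes higher under the drug, 122 were also higher without it, which is 29.9% of the treated calls and 53.3% of the untreated ones. Of the 402 lower genes 80 were lower in both states, 19.9% of the treated and 66.7% of the untreated calls. By sign alone, 91.4% of the higher and 86.3% of the lower genes had the same direction without the drug, beside 51.1% and 48.9% of all genes. The median difference of the higher genes was 0.83 with the drug and 0.42 without it, and that of the lower genes -0.74 and -0.36. The genes were selected on the treated values, which alone widens the treated medians.

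**Figure D4:**
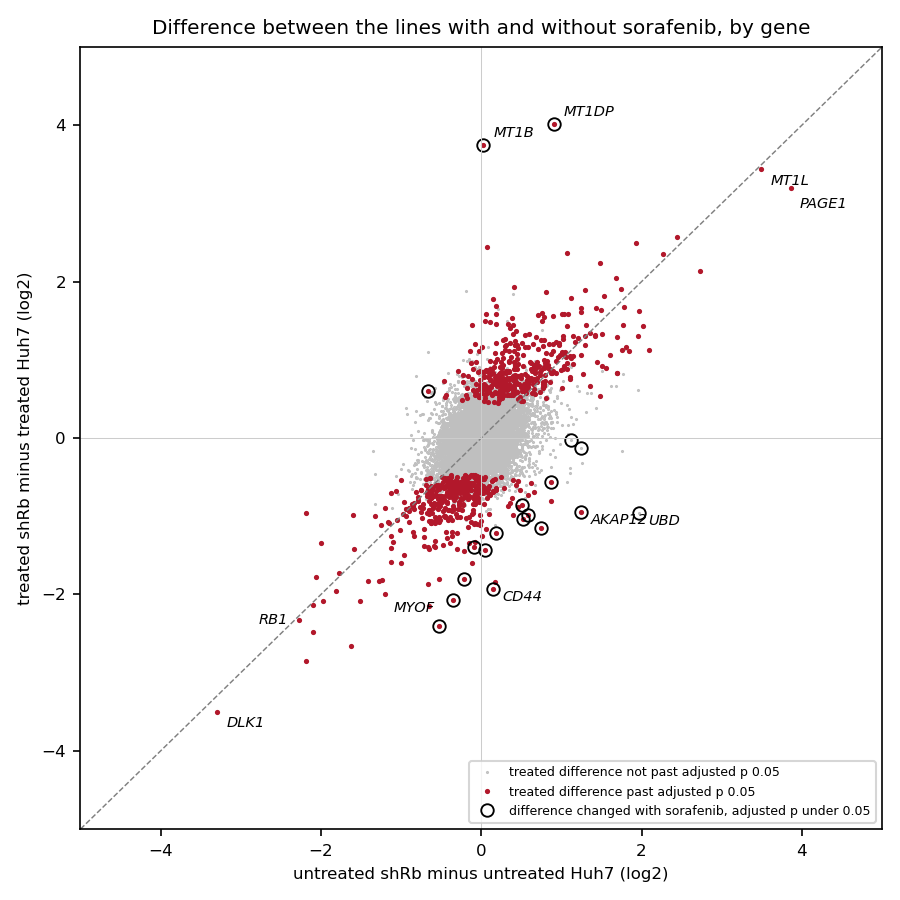
Line difference with sorafenib (treated shRb minus treated Huh7, log2, vertical axis) against that without (untreated shRb minus untreated Huh7, log2, horizontal axis) for each gene with a cluster of its own, with treated calls in red, circles where the difference changed with the drug at an adjusted p under 0.05, and a dashed line of equality. DLK1, RB1, MT1L and PAGE1 lie near the line, MT1B and MT1DP far above it, and a group that includes CD44 and AKAP12 below it.

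A direct test of the change in line difference passed the threshold for 19 genes, 3 upwards (0.0134%) and 16 downwards (0.0714%). MT1B (3.71, SE 0.25, adjusted p = 0.00328), MT1DP (3.11, SE 0.23, adjusted p = 0.00332) and AKAP12 (-2.20, SE 0.17, adjusted p = 0.00332) were the ones whose calls held in every leave-out, and the other 16 were each lost on leaving out any 1 of 4 to 10 arrays. AKAP12, a scaffold protein for kinase A and kinase C, was 6.16, 6.03 and 5.99 in treated shRb cells, against 7.12 and 6.90 in treated Huh7 cells. Without the drug its order was turned, with 7.59, 7.53 and 7.63 in shRb and 6.44 and 6.23 in Huh7, and it was called in both states (-0.95, adjusted p = 0.00386 and 1.25, adjusted p = 0.00114). The same turn with calls in both states was seen for ANXA3 (-0.99 and 0.58), CXCL5 (-0.57 and 0.87) and, in the opposite direction, SLC47A1 (0.60 and -0.66), giving the treated difference first. The leave-outs did not cover the untreated call of any single gene or the treated call of CXCL5. SLC47A1, the cation exporter MATE1, was 7.72, 7.59 and 7.80 in treated shRb cells, against 7.00 and 7.19 in treated Huh7 cells, and 6.73, 6.92 and 6.84 in untreated shRb cells, against 7.49 and 7.50 in untreated Huh7 cells. Its treated call was lost on leaving out any 1 of 7 arrays (adjusted p up to 0.193). EDN1, the vasoconstrictor peptide endothelin 1, was 6.33, 5.98 and 5.99 in treated shRb cells, against 7.28 and 7.22 in treated Huh7 cells (-1.16, SE 0.17, adjusted p = 0.00873, lost without treated Huh7 replicate 5 or 6 at up to 0.0756). Its untreated values lay in the opposite order, with 7.48, 7.48 and 7.92 in shRb and 7.00 and 6.77 in Huh7, a difference that missed the threshold (0.74, adjusted p = 0.0929).

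For other genes the lines were close without the drug and apart with it. GJA1, the gap junction protein connexin 43, was 7.62, 7.57 and 7.44 in treated shRb cells, against 9.10 and 8.85 in treated Huh7 cells (-1.43, SE 0.11, adjusted p = 0.000237). Its untreated values were 9.51, 9.50 and 9.50 in shRb and 9.47 and 9.44 in Huh7. IL31RA, a cytokine receptor chain, was 5.19, 4.95 and 5.08, against 6.99 and 6.76 (-1.81, SE 0.13, adjusted p = 0.000168, treated shRb against treated Huh7), with an untreated difference of -0.22. CNN1, the smooth muscle protein calponin, differed by -1.21 with the drug and by 0.18 without it.

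The reverse also occurred, where a gap between the untreated lines was not called under the drug. CAVIN1, a coat protein of caveolae, was 4.82, 4.77 and 4.95 in treated shRb cells, against 4.83 and 4.93 in treated Huh7 cells, but 6.17, 6.07 and 6.11 in untreated shRb cells, against 4.96 and 5.04 in untreated Huh7 cells. TMOD1, which caps actin filaments, differed by -0.13 with the drug (adjusted p = 0.755) and by 1.24 without it (adjusted p = 0.00181). UBD, a ubiquitin-like protein induced by cytokines, was 4.85, 5.19 and 4.49 in treated shRb cells, against 5.91 and 5.69 in treated Huh7 cells, which missed the threshold (-0.96, SE 0.26, adjusted p = 0.105). Untreated, UBD was 6.45, 6.53 and 6.67 in shRb and 4.13 and 5.03 in Huh7. GJA1, CXCL5, CNN1, CAVIN1 and TMOD1 were picked from the 19 genes after their values were seen.

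**Figure D5:**
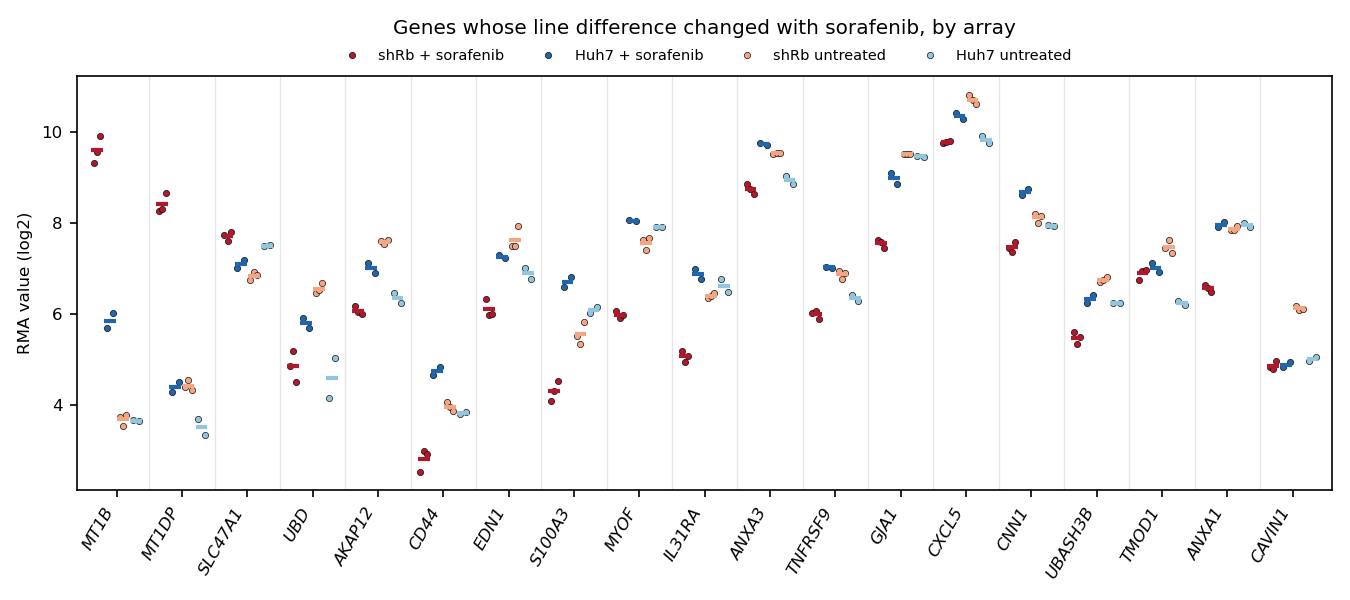
RMA values (log2, vertical axis) on all 10 arrays of the 19 genes whose line difference changed with sorafenib, with treated shRb, treated Huh7, untreated shRb and untreated Huh7 from left to right within each gene and a bar at each group mean. In AKAP12 and ANXA3 the order of the lines is turned with the drug, in GJA1 and CD44 the gap is wide only between the treated groups, and in CAVIN1 only between the untreated ones.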

How the data were processed

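Affymetrix HuGene 2.1 ST array strips measured total RNA of 10 samples: treated shRb (3 arrays), treated Huh7 (2), untreated shRb (3) and untreated Huh7 (2), with groups taken from the labels. The authors normalized the arrays in Expression Console by default RMA-sketch, which corrects background, equalizes distributions and summarizes probes, and deposited log2 values for 53617 transcript clusters. The authors then analysed the arrays with the TAC software at default settings, which was not rerun here. Software version, annotation and genome build are not given in the sources used here. Arrays have no read depth, so their number limits the precision. The labels describe the arrays as biological replicates but call both treated Huh7 samples the second one, so p-values measure the spread between these samples, which may be technical. The strip of each array is not given, so a strip and the line cannot be told apart.

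Gene names came from the platform's probe table, updated through RefSeq (22560 of the 23870 clusters with 1 symbol matched by gene identifier). Clusters with several symbols (1848) or none (27899) were only counted, and 2113 clusters share every value with another. For lists, a gene took its brightest cluster of its own name. A linear model of the 4 group means over all 10 arrays (6 residual degrees of freedom) was fitted with limma 3.58.1 in R 4.3.3, and calls were made at a Benjamini-Hochberg adjusted p under 0.05 across all clusters. The sorafenib comparison, the untreated one and their difference were contrasts of this fit, which was tested on simulated data. Folds are 2 to the power of the log2 difference.

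Members and lists were chosen with earlier results of these data known. Named were RB1 with pocket and E2F genes, metallothioneins, the 15 largest calls each way without overlap of arrays, up to 4 members a list and direction by p, the up to 8 largest changes of the line difference each way, and ALB, AFP, GAPDH, ACTB, NFE2L2 and KEAP1. Sex-linked Y genes were not named. The 33 lists held 888 genes, of which 765 were measured. Alternatives were the 5 sorafenib arrays alone, a trended and robust variance, brighter clusters, quantile normalization again, median centring, 1-symbol clusters, the methods' t-test and leaving out each array.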

Additional observations from a re-analysis of the deposited data

Results flagged for a closer look

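For 19 genes the difference between the lines changed with sorafenib by a test of that change itself, at an adjusted p under 0.05 from limma. The values that follow are the line difference with the drug minus that without it, on the log2 scale. Upwards were MT1B (3.71), MT1DP (3.11) and SLC47A1 (1.27). Downwards were UBD (-2.93), AKAP12 (-2.20), CD44 (-2.08), EDN1 (-1.90), S100A3 (-1.88), MYOF (-1.73), IL31RA (-1.59), ANXA3 (-1.57), TNFRSF9 (-1.56), GJA1 (-1.48), CXCL5 (-1.44), CNN1 (-1.39), UBASH3B (-1.37), TMOD1 (-1.37), ANXA1 (-1.31) and CAVIN1 (-1.15).

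Leaving out an array ended most of these calls. MT1B, MT1DP and AKAP12 stayed past the threshold throughout, with adjusted p of at most 0.0361. MYOF was lost without any 1 of the 4 Huh7 arrays, and CD44, ANXA3 and TNFRSF9 without any of these or untreated shRb replicate 7, with adjusted p up to 0.0913. The calls of the other 12 genes were each lost on leaving out any 1 of 7 to 10 arrays, with adjusted p up to 0.231.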

How the results depend on the processing

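The number of clusters called between the treated lines was 1223 (692 higher, 531 lower). With the 5 sorafenib arrays alone it was 222 (138 higher, 84 lower), and the methods' t-test called 0 (4977 at an unadjusted p under 0.05, against 7439 with limma). Brighter clusters only gave 834 lower and 1-symbol clusters only gave 845 lower. Leaving out an array gave 303 to 909 calls (179 to 547 higher, 124 to 424 lower). Between the untreated lines, 546 were called, 13 by the methods' t-test and 137 to 594 without an array. The lowest, 137 and 150, came without untreated Huh7 replicates 1 and 3, and shRb replicates 7, 8 and 9 gave 251, 244 and 251. For the change of the line difference, 26 became 51 with trended and robust variance, 48 with brighter clusters, 77 with 1-symbol clusters and 3 to 20 without an array.

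List counts with the 5 sorafenib arrays alone were 0 for cholesterol synthesis, 4 for coagulation and complement, 4 for epithelial and mesenchymal genes, 2 for YAP/TEAD targets and 0 for BMP, TGF-beta and Notch targets. The methods' t-test gave 0 for these and for metallothioneins. Without an array, the counts were 8 to 9 for metallothioneins, 1 to 8 for cholesterol synthesis, 4 to 9 for coagulation and complement, 4 to 9 for epithelial and mesenchymal genes, 2 to 6 for YAP/TEAD targets, 0 to 3 for BMP, TGF-beta and Notch targets and 0 for E2F-driven replication genes. Of the 119 named clusters called, 70 were not called with the 5 sorafenib arrays alone, which has fewer degrees of freedom, 1 each under trended variance, quantile normalization and median centring, and 119 under the methods' t-test. No named call changed direction under these alternatives. The cause of the other changes was not tested. No paired analysis was possible because the replicate numbers in the titles are not shared between groups.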

Other observations

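Over all genes, with members of the lists included, the calls were spread unevenly over the chromosomes, as judged from the RefSeq chromosome of each gene symbol. On chromosome 10, 41 of 829 genes were higher (4.95%) and 8 were lower (0.965%) in treated shRb cells, and the median difference of all its genes was 0.07 with the drug and 0.09 without it. Chromosome 7 showed the opposite, with 9 of 1033 genes higher (0.871%) and 43 lower (4.16%), and medians of -0.06 and -0.04. On chromosome 16, 16 of 860 genes were higher (1.86%), the 8 called metallothioneins among them. On the same chromosome 34 were lower (3.95%), with medians of -0.09 and -0.04. The shares over all genes were 1.82% higher and 1.80% lower. These chromosomes were picked out after the values were seen, and no test was made.

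Clusters without a gene symbol held 241 higher and 80 lower calls of 27899 between the treated lines, a larger excess of higher calls than the 427 and 426 of the 23870 clusters with 1 symbol. The 2113 clusters that share every value with another were not removed from the data. The difference between these splits was not tested.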
